A study of Rattus norvegicus with 3 samples.

Results

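The neurotransmitter receptors measured in rat aorta were the subunits and receptors for GABA, glycine, glutamate, acetylcholine, serotonin, dopamine and noradrenaline. They were taken by gene symbol from the platform annotation, which gave 88 receptor genes on 137 probe sets, of 4736 genes on 7006 probe sets with exactly 1 symbol. Only probe sets with 1 symbol were used, and the related symbol Grina, which names no receptor subunit, was left out. Total RNA of the thoracic aorta came from Sprague Dawley rats in 3 groups, each dosed for 20 days, with 1 array per group. The control group received water at 1 ml/kg, and the other groups received allylamine at 35 mg/kg or 70 mg/kg. Allylamine is toxic to the heart and the arterial wall, where amine oxidase of the smooth muscle turns it into the reactive aldehyde acrolein. The labels do not say how many rats an array stands for. With 1 array per group no difference has a replicate check, no test between groups was possible and no p-value is given.

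Neurotransmitters act through channels that open on binding and through receptors that signal by G proteins. Sympathetic nerves in the outer coat of an artery release noradrenaline, which contracts smooth muscle through alpha-1 receptors, while beta receptors relax it. Acetylcholine relaxes arteries through muscarinic receptors on the endothelium, and serotonin acts on muscle and endothelium through several receptor types. GABA-A, glycine and glutamate channels are best known from synapses in brain and spinal cord.

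The 88 genes were divided into 14 vascular receptors, adrenergic, muscarinic and serotonin receptors known from heart and vessels, 5 nicotinic subunits of the skeletal muscle endplate, and 69 others called neuronal. Values are intensities on a linear scale after each array was scaled to a common median. A floor was set at an intensity of 188, the 40th percentile of all scaled values, and a gene was counted as above it when the median of its probe sets was. A difference is given on the log2 scale, as the median over those probe sets of a gene that lay above the floor on both arrays, and 2-fold, a log2 difference of 1, was the size at which a receptor is called higher or lower. Probe sets bind their targets with unequal strength, so the intensity of one gene is not set against that of another.

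The arrays differed in ways that touch every receptor. Relative to the control array, spiked control transcripts had a median brightness ratio of 3.81 on the 35 mg/kg array and of 28.8 on the 70 mg/kg array. The span from the 5th to the 95th percentile of the probe sets was 6.58, 6.16 and 5.22 on the log2 scale on the control, 35 mg/kg and 70 mg/kg arrays. The ratio of beta-actin signal at the 3′ end to that at the 5′ end, a sign of RNA quality, was 0.38, 0.54 and 1.42. The part of these 3 measures in the differences below was not tested. Of 10 smooth muscle marker genes, those above the floor numbered 7, 6 and 8 on the control, 35 mg/kg and 70 mg/kg arrays. The shares of all genes above it were 63.4%, 62.1% and 63.3%. In the high dose comparison 2 of 7 measured markers were at least 2-fold higher, Cnn1 (2.86) and Actg2 (1.32). Only Tpm1 was lower (-3.35), and its 3 measured probe sets ran from -3.63 to 6.09. The median of the markers was -0.02, and over all genes 19.7% were higher and 23.2% lower. The smooth muscle actin Acta2 differed by -0.28 at the low dose on 1 of 3 probe sets. Its difference of -0.02 at the high dose is the middle of probe sets at -0.73 and 0.69. The median of Acta2 over all 3 probe sets read 970, 190 and 583. The smooth muscle myosin Myh11 differed by -1.20 and -0.29 at the low and high dose on 1 of 3 probe sets. Its median over all 3 read 123, below the floor, then 191 and 359. Neuron markers lay above the floor in 10, 9 and 11 of 14 cases, and sympathetic nerve markers in 7, 5 and 6 of 8. These counts stand beside the same shares of all genes. Among neuron markers the synaptic gene Snap25 read 245, 761 and 1175, while the synaptic vesicle gene Syn1 read 2151, 1732 and 837, and their part in the receptor values was not tested. A whole aorta holds muscle, endothelium, nerve endings and fat, and a lower value cannot tell fewer cells of a type from less RNA per cell.

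Of the 88 receptors, 61 lay above the floor in the control aorta, 67 at 35 mg/kg and 66 at 70 mg/kg. Over all genes the shares above the floor were 63.4%, 62.1% and 63.3%. The vascular receptors were above it in 13, 9 and 12 of 14 cases, and the neuronal receptors in 44, 55 and 50 of 69. In shares, 92.9% of the vascular and 63.8% of the neuronal receptors were above the floor in the control aorta, so the neuronal share was close to that of all genes. At 35 mg/kg the order was the other way round, 64.3% of the vascular and 79.7% of the neuronal receptors. That order depended on the floor, since with one at the 55th percentile the counts at 35 mg/kg were 9 of 14 vascular and 37 of 69 neuronal receptors, and with one at the 5th percentile 14 of 14 and 67 of 69.

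**Figure D1:**
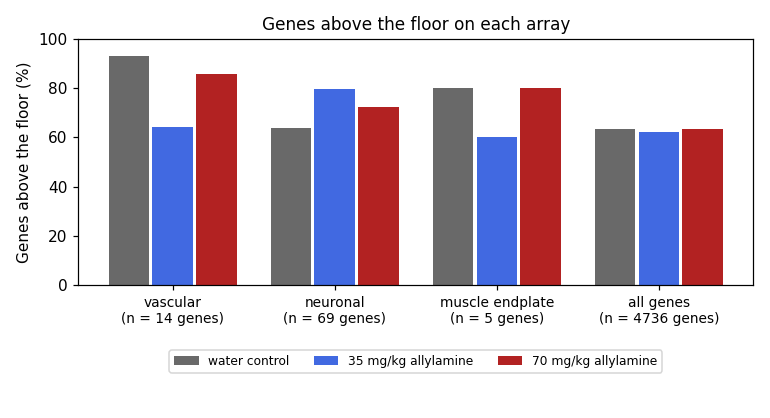
Share of genes above the floor (vertical axis, percent) on the water control, 35 mg/kg and 70 mg/kg arrays, for the vascular, neuronal and muscle endplate receptors and for all genes. The neuronal bars stand at 63.8%, 79.7% and 72.5%, and the bars of all genes at 63.4%, 62.1% and 63.3%.

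On all 3 arrays 40 receptors were above the floor, 29 of them neuronal and 9 vascular. Over all genes this share was 39.9%, and among the receptors it was 45.5%. The 9 vascular receptors were Adra1a, Adra1b, Adra1d, Adra2a, Adrb1, Adrb3, Chrm2, Chrm3 and Htr2b. Below the floor on every array were 3 genes, the nicotinic subunit Chrna5, the GABA channel subunit Gabrr3 and the glycine channel subunit Glra3. A further 14 neuronal receptors, 20.3% of the class, were below the floor in the control aorta and above it at both doses, against 7.6% of all genes. These were Chrna6, Chrna9, Chrnb2, Gabra3, Gabra4, Gabra5, Gabrg3, Gria1, Gria3, Gria4, Grik4, Grin1, Htr1d and Htr2c. Of them, Gabra4, Gria1, Gria4, Grin1 and Htr2c each had 1 probe set above the floor in the control aorta. Gria3 at 35 mg/kg (189.2) and Grik4 at 70 mg/kg (188.4) barely passed the floor of 188.3. The pattern was not counted again with another floor. The reverse pattern, above the floor in the control aorta only, was found in Chrna3, Drd4, Glra2 and Grm2 of the neuronal class and in Adra2b and Htr1b of the vascular class, and in 6.61% of all genes.

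Both doses are compared with the same control array, so a control value that is off moves both differences the same way. At least 2-fold higher at both doses were Adrb1, Htr2b, Chrna4, Gabra2, Gabra4 and Gabrd, and at least 2-fold lower at both were Grik5, Grin2b and Grin2d. The share of all genes past 2-fold the same way at both doses was not counted. Either way, 42.9% of all genes passed 2-fold at 70 mg/kg and 33.1% at 35 mg/kg. A second Gabrd probe set went the other way, from 647 to 158 and 54.1. Promoters were read from RefSeq for the 7 of these 9 genes that have an entry, to show the DNA in front of the receptors that lay at least 2-fold from the control the same way at both doses. Gabra2 and Grin2b have no entry. Each line gives the 150 bases before the annotated start, 5′ to 3′ on the gene's strand, from the GRCr8 assembly. Capitals mark the GC box GGGCGG on either strand, the core site of Sp1-type factors, and overlapping matches run together.
Adrb1: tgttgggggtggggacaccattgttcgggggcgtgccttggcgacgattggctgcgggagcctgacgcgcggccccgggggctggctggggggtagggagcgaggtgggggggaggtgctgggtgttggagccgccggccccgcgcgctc
Chrna4: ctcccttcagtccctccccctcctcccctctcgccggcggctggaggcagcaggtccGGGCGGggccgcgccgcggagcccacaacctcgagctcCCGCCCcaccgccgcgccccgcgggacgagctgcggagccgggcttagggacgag
Gabra4: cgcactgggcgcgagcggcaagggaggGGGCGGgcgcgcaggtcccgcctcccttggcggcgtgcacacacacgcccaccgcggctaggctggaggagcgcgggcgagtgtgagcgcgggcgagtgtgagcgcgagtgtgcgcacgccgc
Gabrd: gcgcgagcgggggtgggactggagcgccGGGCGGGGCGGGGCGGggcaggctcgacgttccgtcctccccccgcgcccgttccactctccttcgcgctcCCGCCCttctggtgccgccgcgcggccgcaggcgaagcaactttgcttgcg
Htr2b: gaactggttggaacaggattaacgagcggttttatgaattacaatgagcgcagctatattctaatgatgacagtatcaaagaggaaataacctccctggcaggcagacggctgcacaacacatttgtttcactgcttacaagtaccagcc
Grik5: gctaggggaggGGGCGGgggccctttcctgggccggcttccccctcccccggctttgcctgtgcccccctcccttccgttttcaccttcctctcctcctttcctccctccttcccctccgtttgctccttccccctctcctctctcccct
Grin2d: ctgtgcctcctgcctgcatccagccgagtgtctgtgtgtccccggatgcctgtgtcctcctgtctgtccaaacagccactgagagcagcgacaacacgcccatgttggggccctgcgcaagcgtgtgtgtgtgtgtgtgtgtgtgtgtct
These windows lie at chr1:265776953-265777102 on the plus strand for Adrb1, chr3:188534527-188534676 on the minus strand for Chrna4 and chr14:36944597-36944746 on the plus strand for Gabra4. Those on the minus strand are chr5:171252710-171252859 for Gabrd, chr9:94204088-94204237 for Htr2b, chr1:89794910-89795059 for Grik5 and chr1:105481237-105481386 for Grin2d. Gabrd holds 4 GC boxes, Chrna4 holds 2, Gabra4 and Grik5 hold 1 each, and Adrb1, Htr2b and Grin2d hold 0. The Gabrd and Gabra4 windows each have 24 CpG dinucleotides and a GC content of 77.3%, while the Htr2b window has 4 CpG and 44.0% GC. Among the 67 receptor genes with a promoter entry, 28 windows, or 41.8%, hold a GC box, against 26% of 33469 windows of the same length over all genes. The TATA box TATAAA, searched on both strands, is in 2 of the 67 windows and in 8.0% of all windows, and the cyclic AMP response element TGACGTCA is in 0 of 67 and in 1.36% of all. These motifs share no overlap in the 7 printed windows, since neither of the last 2 occurs there. A match is a description of the letters and shows nothing of binding.

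The alpha-1 receptors contract arterial muscle, and Adra1d is the subtype best known from the rat aorta. Adra1b read 2256 in the control aorta, 1693 at 35 mg/kg and 2232 at 70 mg/kg on 1 probe set, a difference of -0.02 at 70 mg/kg and -0.41 at 35 mg/kg. The 3 arrays thus lay within 2-fold of each other. Adra1a read 555, 1114 and 315, which is 1.01 higher at 35 mg/kg and a difference of -0.82 at 70 mg/kg, so the doses lay on opposite sides of the control. Adra1d has 2 probe sets that disagreed. One read 1717, 1979 and 485, and the other 255, 126 and 308, so that their differences at 70 mg/kg were -1.82 and 0.27. Its median difference at 70 mg/kg was -0.77.

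Alpha-2 receptors sit on nerve endings, where they hold back noradrenaline release, and on vascular cells. The 3 probe sets of Adra2a read 62.6, 227 and 212, then 1173, 2581 and 1853, then 436, 579 and 142 on the control, 35 mg/kg and 70 mg/kg arrays. All of them were higher at 35 mg/kg than in the control, by 1.14 and 0.41 on the 2 that were measured on both arrays. At 70 mg/kg the only probe set measured on both was higher by 0.66. Adra2b read 355 in the control aorta and 136 and 164, both below the floor, at the doses. Adra2c went the other way at the high dose, with 89.2 and 109 below the floor and 614 at 70 mg/kg, at least 3.26-fold higher than in the control.

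Adrb1 and Adrb3, beta-adrenergic receptors, were brighter at both doses than in the control aorta. Adrb1, the main cardiac beta receptor that also relaxes arteries, read 661 in the control aorta, 1921 at 35 mg/kg and 1495 at 70 mg/kg. It was higher by 1.54 at 35 mg/kg and 1.18 at 70 mg/kg. Adrb3, known best from fat cells, read 1433, 4063 and 2468, higher by 1.5 at 35 mg/kg and differing by 0.78 at 70 mg/kg. Each has 1 probe set, and in both the 35 mg/kg array was the brightest. The fat cell markers above the floor numbered 5, 7 and 8 of 9 on the 3 arrays, against 63.4%, 62.1% and 63.3% of all genes. At 70 mg/kg 1 of 5 measured markers was higher and 2 lower, against 19.7% and 23.2% of all genes. The markers had a median difference of -0.21 at 70 mg/kg and of 0.21 at 35 mg/kg. They did not move together. The brown fat gene Ucp1 read 217, 402 and 576, while the lipase gene Lipe read 3006, 2864 and 1084 and the glucose transporter gene Slc2a4 read 1295, 495 and 383. The 2 probe sets of Slc2a4 ran in opposite directions, at -3.39 and 0.89 at 70 mg/kg and at -3.38 and 1.38 at 35 mg/kg. The part of the fat cell markers in the Adrb3 values was not tested.

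Muscarinic receptors were above the floor on all arrays in 5 of 5 genes, against 39.9% of all genes. Chrm3, the receptor through which acetylcholine releases nitric oxide from endothelium, has 2 probe sets that read 188, 369 and 718 and 796, 951 and 1577. Both were higher at 35 mg/kg than in the control and higher again at 70 mg/kg, with a difference of 0.99 at 70 mg/kg on the probe set measured on both arrays and 0.85 between the doses on both. Chrm2, the cardiac inhibitory receptor, differed by 0.00 at 70 mg/kg, the middle of probe sets at 0.73 and -0.73, and by -0.54 at 35 mg/kg. Chrm5, found in brain and in brain vessels, read 506, 411 and 1492, higher by 1.56 at 70 mg/kg. Chrm1, a receptor of cortex and ganglia, differed by -0.94 at 70 mg/kg and 0.55 at 35 mg/kg. Chrm4, a striatal receptor, differed by -0.23 and 0.21.

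Of 13 serotonin receptor genes, 10 lay above the floor in the control aorta, against 63.4% of all genes. Htr2b, expressed in endothelium and heart valves, read 504, 1038 and 1277, higher by 1.04 at 35 mg/kg and 1.34 at 70 mg/kg. Htr2a, which mediates contraction of arteries by serotonin, has 2 probe sets, at 252, 138 and 888 and at 152, 56.0 and 103. The first was higher by 1.82 at 70 mg/kg, and the second stayed below the floor throughout. Htr1b, another constrictor receptor, read 220 in the control aorta and 124 and 127, below the floor, at the doses. Htr7, which relaxes vessels, has 2 probe sets that ran in opposite directions, at 437, 129 and 165 and at 42.2, 72.2 and 216.

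**Figure D2:**
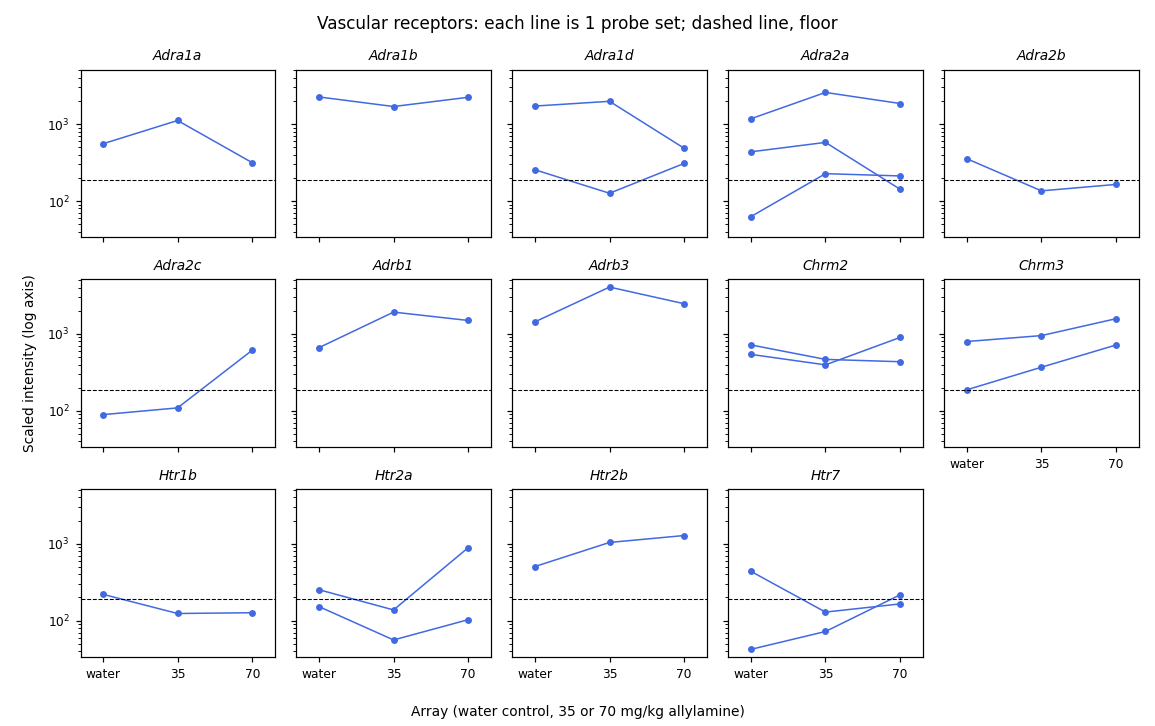
Scaled intensity (vertical log axis) of the 14 vascular receptor genes on the water control, 35 mg/kg and 70 mg/kg arrays, 1 line per probe set, with the floor of 188 dashed. Adrb1, Adrb3 and Htr2b are higher on both treated arrays, while the lines of Chrm2 and Htr7 cross and those of Adra1d run in opposite directions.

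Among serotonin receptors of the neuronal class, Htr5b had the lowest difference at 70 mg/kg of all receptors measured on both arrays. It read 1820, 2682 and 214, a difference of 0.56 at 35 mg/kg and -3.09 at 70 mg/kg. Htr6, a brain receptor that raises cyclic AMP, read 2231, 631 and 120, with a difference of -1.82 at 35 mg/kg, and it was at least 11.8-fold lower at 70 mg/kg. Htr1d read 96.7, 638 and 833, at least 3.39-fold and 4.42-fold higher at the doses. Htr1f read 37.9, 411 and 123, above the floor at 35 mg/kg only. Htr2c, a receptor of the choroid plexus, was higher by 1.45 at 70 mg/kg on 1 of its 2 probe sets, the other being below the floor on every array. The probe sets of Htr4 disagreed, with one at 257, 561 and 773 and another at 742, 186 and 190. Htr3a, the serotonin-gated channel, differed by -0.39 at 70 mg/kg and 0.18 at 35 mg/kg on 3 probe sets. Htr1a differed by 0.06 and Htr5a by -0.72 at 35 mg/kg.

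Of the dopamine receptors, Drd2 and Drd5 differed by less than 2-fold at both doses. Drd2, a receptor that lowers cyclic AMP, read 590, 668 and 620. Drd5 read 2250, 1493 and 1310, with differences of -0.59 at 35 mg/kg and -0.78 at 70 mg/kg. The value of Drd3 has no clear direction, since one probe set went from 201 to 2153 and 1855 and the other from 11559 to 5291 and 4210. Its median of 1.15 at 35 mg/kg stands between 3.42 and -1.13, and that of 0.88 at 70 mg/kg between 3.21 and -1.46. Drd1, the receptor that dilates kidney arteries, had all 3 probe sets below the floor in the control aorta and above it at 70 mg/kg, at 573, 271 and 320. Drd4 read 224, 164 and 157.

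Nicotinic receptors are acetylcholine-gated channels of 5 subunits. Chrna4, the partner of Chrnb2 in the main brain receptor, read 311 in the control aorta, 1325 at 35 mg/kg and 2665 at 70 mg/kg. It was higher by 2.09 and 3.10, the latter the highest difference at 70 mg/kg of any receptor measured on both arrays, and by 1.01 between the doses. Chrnb2 read 86.5, 246 and 387, Chrna6 read 98.8, 313 and 1223, and Chrna9, a subunit of the inner ear, read 54.0, 257 and 973. All 3 were below the floor in the control aorta and at least 2.05-fold, 6.49-fold and 5.17-fold higher at 70 mg/kg. Between the doses Chrna6 was higher at 70 mg/kg by 1.97, Chrna9 by 1.92 and Chrnb2 by 0.66. These 4 subunits lay in the same order on the arrays, lowest in the control and highest at 70 mg/kg. The share of all genes in that order was not counted.

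The ganglionic subunits did not follow that order. Chrna3, which forms the receptor of autonomic ganglia with Chrnb4, read 507, 153 and 123, at least 2.69-fold lower at both doses. Chrnb4 differed by 0.56 at 35 mg/kg and -0.50 at 70 mg/kg, with its 2 probe sets at 0.12 and -1.13 at the high dose. Chrna7, a homomeric channel also found on endothelium and macrophages, gave 1125, 821 and 353 on its brightest probe set, a difference of -1.67 at 70 mg/kg, and 262, 109 and 327 on another from the same source sequence. Chrna2 read 831, 915 and 426. Chrnb3 read 23.2, 274 and 56.6, above the floor at 35 mg/kg only. Of the muscle endplate subunits, Chrng, the fetal subunit, read 2944, 1718 and 1845, Chrne, its adult replacement, 712, 173 and 176, and Chrnd 173, 733 and 419. Chrnb1 read 567, 426 and 282, lower, at -1.01 at 70 mg/kg, and Chrna1 read 390, 164 and 332.

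GABA-A receptors are chloride channels built mostly of alpha, beta and gamma or delta subunits. Of 15 genes, 9 lay above the floor in the control aorta, 13 at 35 mg/kg and 12 at 70 mg/kg, against 63.4%, 62.1% and 63.3% of all genes. In the low dose comparison 4 of 10 measured genes were at least 2-fold higher and 0 lower, against 16.8% and 16.3% of all genes. For the high dose 3 of 8 were higher and 1 lower, against 19.7% and 23.2% of all genes. Gabra2 read 272, 1285 and 1384, higher by 2.24 at 35 mg/kg and 2.35 at 70 mg/kg on its only probe set. Gabra4, which pairs with the delta subunit outside synapses, was higher by 2.16 and 2.15 on a probe set that read 251, 1119 and 1114. Its other probe set read 5.31, 23.0 and 171, below the floor on every array and brightest at 70 mg/kg.

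The delta subunit itself, Gabrd, gave contrary readings. One probe set read 295, 2391 and 1592, higher by 3.02 and 2.43 at the low and high dose, and the other read 647, 158 and 54.1, below the floor at both doses. Gabrb2 was higher by 1.12 at 35 mg/kg, with its 2 probe sets at 1.08 and 1.16, and differed by 0.20 at 70 mg/kg. Gabra3 and Gabra5 had median readings below the floor in the control aorta, of 105 and 140, and above it at the doses. Gabra6, a subunit of cerebellar granule cells, read 767, 1258 and 155, at least 4.07-fold lower at 70 mg/kg. Gabrb1 read 268, 484 and 101. Gabrr1, a subunit of the retina, read 1857, 1554 and 494, lower, at -1.91 at 70 mg/kg and -1.65 between the doses. Gabrg3 read 170, 816 and 208, at least 4.33-fold higher at 35 mg/kg. Gabrg1 differed by 0.69 at 70 mg/kg, Gabrp by -0.11 and Gabre by 0.09, and Gabrr2 was above the floor at 70 mg/kg only.

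GABA-B receptors are the G protein-coupled GABA receptors and need both subunits. Gabbr1 has 4 probe sets in pairs from 2 source sequences. One pair read 451, 755 and 176 and 453, 506 and 95.3, and the other read 1071, 2335 and 2082 and 1054, 2204 and 1290. All 4 were higher at 35 mg/kg, with a median of 0.90, but at 70 mg/kg the first pair was below the floor while the second was higher by 0.96 and 0.29. Gabbr2 was lower, at -1.12 at 70 mg/kg and differed by 0.17 at 35 mg/kg on 1 of its 3 probe sets. Of the glycine channel subunits, Glra1 read 1477, 1116 and 512 on one probe set and 969, 2081 and 2205 on another, so its differences at 70 mg/kg ran from -1.53 to 1.19. Glra2 read 259, 15.6 and 156.

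**Figure D3:**
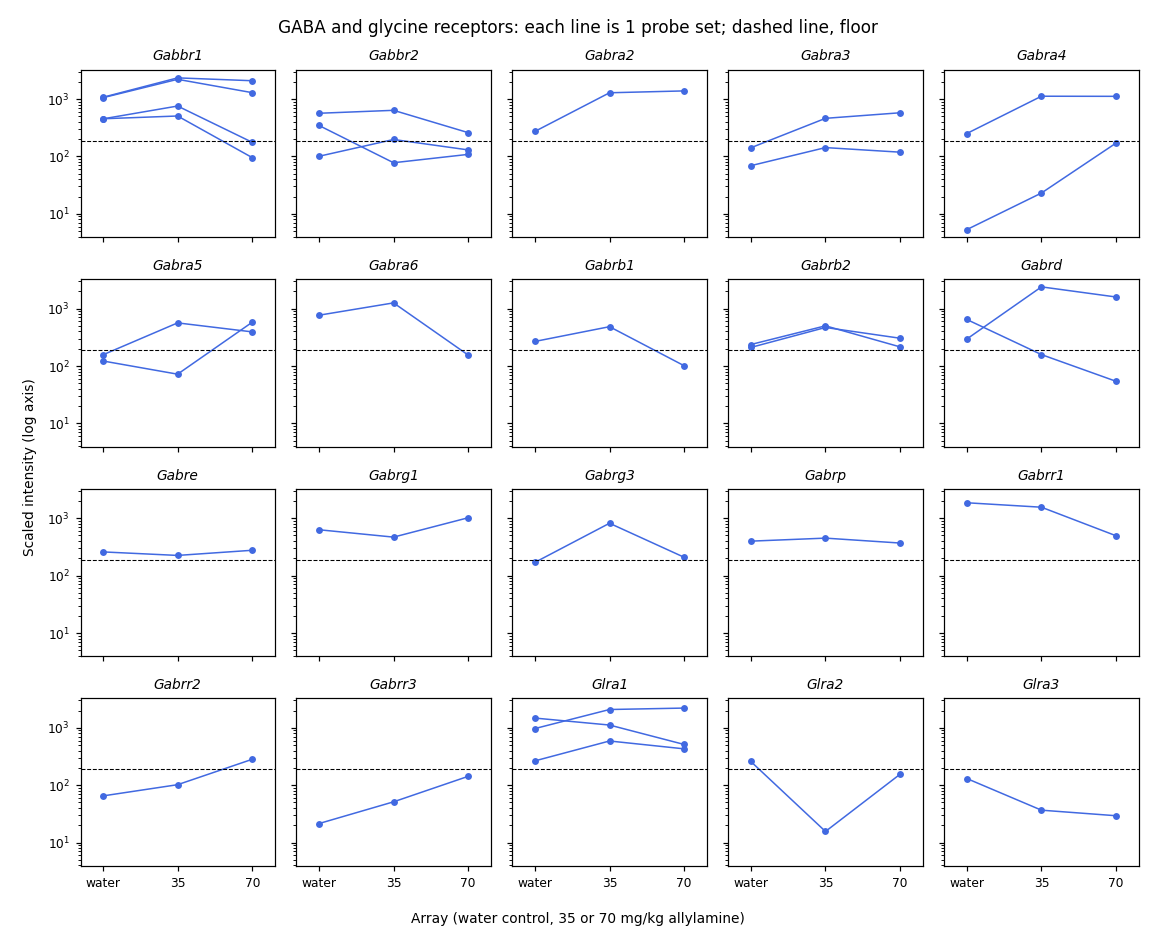
Scaled intensity (vertical log axis) of the 20 GABA and glycine receptor genes on the water control, 35 mg/kg and 70 mg/kg arrays, 1 line per probe set, with the floor of 188 dashed. Gabra2 and both Gabra4 lines are higher at the doses, and the 2 Gabrd lines cross.

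The ionotropic glutamate receptors comprise the AMPA, kainate and NMDA channels, which carry fast excitation. Among the NMDA subunits 5 of 6 genes had a difference below 0 at each dose. Over all genes this held for 1285 of 2462 at 70 mg/kg and 1260 of 2606 at 35 mg/kg. At 70 mg/kg 3 of 6 passed 2-fold downward and 0 upward, with a median of -1.06, and at 35 mg/kg 3 of 6 were lower and 0 higher, with a median of -0.97. Over all genes 23.2% were at least 2-fold lower and 19.7% higher at 70 mg/kg, and 16.3% lower and 16.8% higher at 35 mg/kg. One of the 3 lower genes at 70 mg/kg is Grin1, which was measured there on 1 of 4 probe sets because the others were below the floor in the control aorta. At 35 mg/kg Grin1 differed by -0.18 on the same probe set, while its others read 287, 568 and 1433, all above the floor. Its median over all its probe sets read 129, 716 and 700, and its difference at 70 mg/kg was 0.51 with a floor at the 25th percentile and 1.43 with one at the 5th. Without Grin1, 2 of 5 genes were lower at 70 mg/kg with a median of -0.80, and 3 of 5 at 35 mg/kg with a median of -1.26. With all 6 genes the median at 70 mg/kg was -0.46 and -0.26 under those lower floors. Between the doses, without the control array, 0 of 5 genes differed by 2-fold, against 35.3% of all genes, and the median was 0.43. With the values as deposited, trimmed-mean scaling, either lower floor, gene medians or without less specific probe sets, 1 gene was at least 2-fold higher. That median was -0.14 with a floor at the 25th percentile and 0.17 with one at the 5th.

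Grin2b, a glutamate-binding subunit, read 985, 219 and 295, with differences of -2.17 and -1.74 at the low and high dose on 1 probe set. Grin2d has 2 probe sets, at 722, 104 and 317 and at 718, 301 and 261, which were lower, at -1.19 and -1.46 at 70 mg/kg. It is 1 of 2 receptors whose measured probe sets, where more than 1, had the same sign at 70 mg/kg, the other being Gabbr1. Grin3a, a glycine-binding subunit, was lower, at -1.77 at 35 mg/kg on one probe set and differed by -0.80 at 70 mg/kg on another. Grin2a, the other main forebrain subunit, differed by -0.69 and -0.12, and Grin2c by 0.08 and 0.45. Grin1, the subunit that every NMDA receptor needs, did not read alike on its 4 probe sets. One read 980, 865 and 357, a difference of -1.45 at 70 mg/kg, while the others were below the floor in the control aorta, at 64.0, 70.9 and 187, and read 1220, 92.8 and 1042 at 70 mg/kg.

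Among kainate subunits, Grik5 read 7155 in the control aorta, 1000 at 35 mg/kg and 1119 at 70 mg/kg. It was lower, at -2.84 and -2.68 at the doses, and differed by 0.16 between them. Grik3 read 718, 1925 and 392, higher by 1.42 at 35 mg/kg and differing by -0.87 at 70 mg/kg. Grik1 read 365, 470 and 62.1, Grik2 read 41.9, 204 and 51.0, and both Grik4 probe sets were below the floor in the control aorta. The AMPA subunits were below the floor in the control aorta in 4 of 4 genes by their medians, and above it in 3 at 35 mg/kg and in 4 at 70 mg/kg. Over all genes 63.4%, 62.1% and 63.3% were above it on the 3 arrays. However, 1 probe set each of Gria1 (1389), Gria2 (257) and Gria4 (498) lay above the floor in the control aorta. At 35 mg/kg Gria3 was barely above the floor of 188.3, at 189.2. Gria2, the subunit that makes the channel impermeable to calcium, was higher by 1.56 at 70 mg/kg on a probe set at 257, 177 and 758, the other being below the floor throughout. Gria4 was higher by 1.18 at 35 mg/kg and differed by 0.77 at 70 mg/kg on 1 probe set. Gria1 differed by 0.52 and -0.18 on 1 of 3, and the 2 probe sets of Gria3 were each above the floor on a different treated array.

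**Figure D4:**
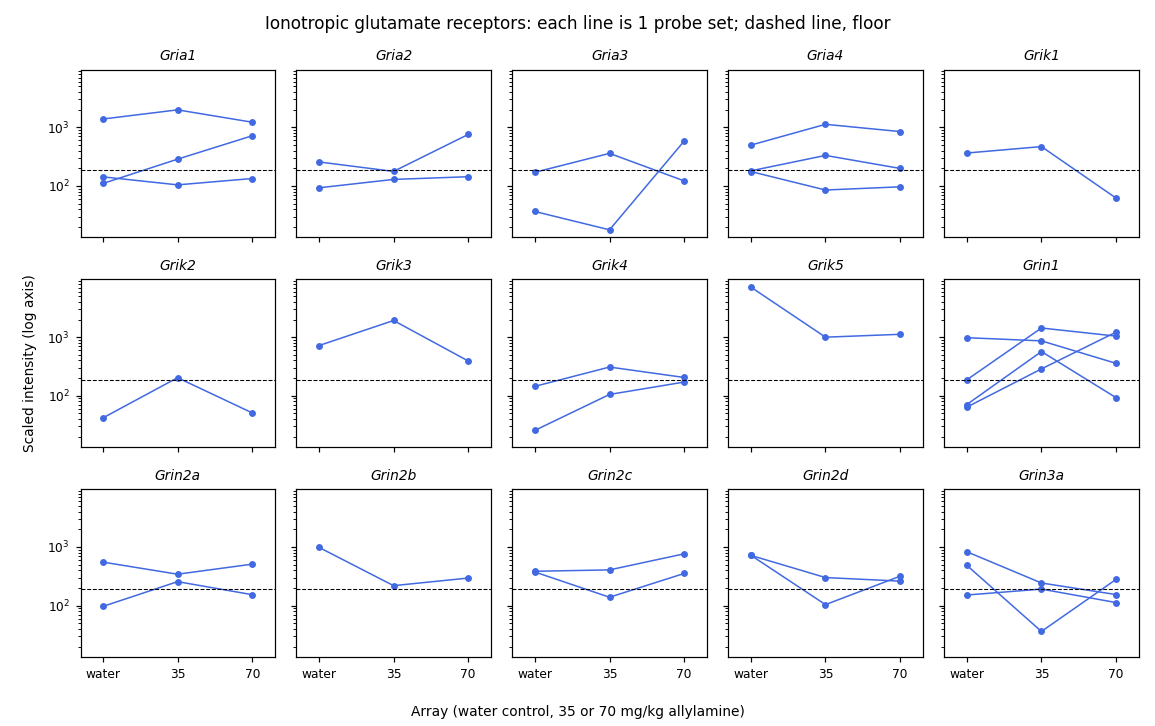
Scaled intensity (vertical log axis) of the 15 AMPA, kainate and NMDA receptor genes on the water control, 35 mg/kg and 70 mg/kg arrays, 1 line per probe set, with the floor of 188 dashed. Grik5 and Grin2b are lower at both doses, while the probe sets of Grin1 and Gria1 run in different directions.

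Metabotropic glutamate receptors couple to G proteins. Of their 7 genes, only 2 were measured on both arrays at 70 mg/kg and 4 at 35 mg/kg. Of these, 0 of 2 and 0 of 4 differed by 2-fold, against 42.9% and 33.1% of all genes. With so few genes measured, these counts show little about the family. Grm4, a presynaptic receptor, read 599, 703 and 755. Grm3, known from glia, read 113, 42.7 and 982, at least 5.21-fold higher at 70 mg/kg. Grm6, a receptor of retinal bipolar cells, read 288, 412 and 28.2, and Grm2 read 272, 82.4 and 147. Grm7 differed by 0.51 at 70 mg/kg and 0.11 at 35 mg/kg on 1 of its 3 probe sets. Grm8 read 196, 225 and 64.9, and Grm5 was above the floor at 70 mg/kg only.

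Set side by side at 70 mg/kg, 10 of 52 measured receptors were at least 2-fold higher and 8 lower, 34.6% together, against 42.9% of all genes, 19.7% being higher and 23.2% lower. The vascular class had 3 of 10 higher and 0 lower with a median of 0.72, and the neuronal class had 7 of 39 higher and 7 lower with a median of -0.12. The median of all genes was -0.06. As bounds, 8 of the 88 receptors were higher and 4 lower, against 7.31% and 7.73% of all genes.

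At 35 mg/kg 14 of 56 receptors were higher and 5 lower, 33.9% together, against 33.1% of all genes, 16.8% being higher and 16.3% lower. The vascular class had 4 of 9 higher and 0 lower with a median of 0.77, and the neuronal class 10 of 45 higher and 5 lower with a median of 0.20. The median of all genes was 0.04. Bounds added 4 higher and 3 lower, against 3.76% and 4.92% of all genes. The vascular medians depended on which probe sets were let in. With a floor at the 25th percentile they were -0.015 for the high dose and -0.40 for the low one, and with a wider vascular class the 70 mg/kg median was 0.0032. The neuronal median at 70 mg/kg turned positive under 3 other scalings, at 0.034 with unscaled values, 0.0042 with quantile normalization and 0.041 with trimmed means.

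Between the doses, the comparison free of the control array, 5 of 58 receptors were at least 2-fold higher at 70 than at 35 mg/kg and 11 lower, 27.6% together, against 35.3% of all genes, 14.4% being higher and 20.9% lower. Bounds added 4 higher and 6 lower, against 6.86% and 5.98% of all genes. The vascular class had 0 of 9 higher and 2 lower, Adra1a (-1.82) and Adra1d (-2.03), with a median of -0.29. The Adra1d value rests on 1 of its 2 probe sets, and with floors at the 25th and the 5th percentile it was -0.37. The neuronal class had 5 of 46 higher and 9 lower with a median of -0.20, and the median of all genes was -0.06. Higher at 70 mg/kg were Chrna6, Chrna9 and Chrm5 (1.86) together with Gabrg1 (1.12) and Chrna4. The lowest were Htr5b (-3.65), Grik3 (-2.29) and Gabrg3 (-1.97).

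**Figure D5:**
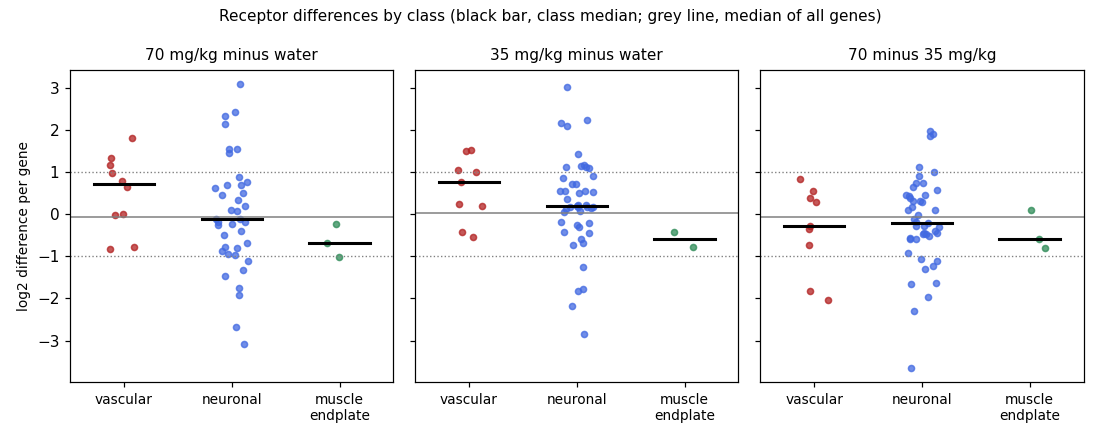
log2 differences (vertical axis) of the measured receptor genes by class in the 3 comparisons, 1 point per gene, with the class median as a black bar, the median of all genes as a grey line and 2-fold as dotted lines. The vascular medians lie at 0.72 and 0.77 against the control array and at -0.29 between the doses.

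Probe sets of one receptor were the only repeat measurement within an array. At 70 mg/kg, 12 receptors had at least 2 measured probe sets, and in 10 of them the probe sets had opposite signs, against 51.6% of 490 such genes overall. The median range within a receptor was 1.35 on the log2 scale, as large as the 2-fold threshold, and 1.40 over all genes. At 35 mg/kg 3 of 9 receptors had opposite signs, with a median range of 0.83, and between the doses 5 of 13, with a median range of 0.60. For all genes these ranges were 1.11 and 1.26, and 50.2% and 53.4% of those with at least 2 measured probe sets had opposite signs. Differences that rest on 1 probe set, as 54 of the 88 receptors do by design, carry no such check.

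The machinery around the receptors was described from lists, whose counts stand beside 19.7% higher and 23.2% lower over all genes at 70 mg/kg and 16.8% and 16.3% at 35 mg/kg. Of 27 genes for transmitter synthesis, uptake and breakdown, 2 of 16 measured were at least 2-fold higher and 1 lower at 70 mg/kg, with a median of 0.39, and 5 of 19 higher and 1 lower at 35 mg/kg. Tyrosine hydroxylase (Th), which makes the precursor of noradrenaline, read 1109, 1278 and 1662, whereas dopamine beta-hydroxylase (Dbh), which completes it, read 322, 273 and 105. The serotonin transporter Slc6a4 was lower, at -1.40 at 35 mg/kg, and the dopamine transporter Slc6a3 higher by 1.78. Of 20 receptor scaffolds and auxiliary subunits, 1 of 9 measured was higher and 3 lower at 70 mg/kg, with a median of -0.32. The scaffold Shank2 differed by -3.99 at 70 mg/kg and -1.67 at 35 mg/kg.

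Of 40 genes for G protein coupling and desensitisation, 5 of 22 measured were higher and 5 lower at 70 mg/kg, and 4 of 26 higher and 6 lower at 35 mg/kg, against the same shares of all genes. The receptor kinase Grk6 differed by -2.87 and -1.49, and the arrestin Arrb2 by 1.18 and -1.08 at the high and low dose. Receptors for vasoactive peptides, lipids and purines, the nearest class outside neurotransmitters, had 24, 34 and 29 of 42 genes above the floor on the 3 arrays. These shares were 57.1%, 81.0% and 69.0%, against 63.4%, 62.1% and 63.3% of all genes. The neuronal receptors, at 63.8%, 79.7% and 72.5%, were likewise highest at 35 mg/kg. At 70 mg/kg 4 of 23 vasoactive receptors were higher and 1 lower with a median of 0.24. At 35 mg/kg 3 of 24 were higher and 1 lower with a median of 0.01. The prostacyclin receptor Ptgir, which relaxes arteries, read 1420, 11219 and 1133, higher by 2.98 at 35 mg/kg and differing by -0.33 at 70 mg/kg.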

How the data were processed

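Arrays of the thoracic aorta from 3 groups, 1 array each, were analysed. The authors deposited 1 intensity per probe set on a linear scale, made with software and scaling that are not stated in any label or header used. These had 2% trimmed means of 500.4, 500.4 and 500.2 on the control, 35 mg/kg and 70 mg/kg arrays. Of 8799 probe sets, 59 controls were left out and 8740 scaled to a common median, which shifted the arrays by 0.06, 0.04 and -0.09 on the log2 scale. The number of arrays limits the precision. All 88 receptor genes were found by gene ID in the GRCr8 gene table, and 0 symbols changed. Genes above the floor on 1 array only, by at least 2-fold, and with no probe set measured on both are given as bounds. Every member is named, and of other lists some with the largest differences and markers. The members and lists were chosen with earlier results of these data known. Alternatives were the values as deposited, quantile normalization, trimmed-mean scaling, a floor at the 5th, at the 25th or at the 55th percentile, using each gene's brightest probe set, differences of gene medians, leaving out probe sets with suffixes for less specific probes, and a wider vascular class. Leaving Grin1 out of the NMDA subunits was added after seeing the data. The calculation was tested on simulated data. Python 3.11.15, numpy 2.4.6 and pandas 2.3.3 were used.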

Additional observations from a re-analysis of the deposited data

Results flagged for a closer look

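Receptors whose differences from the control had opposite signs at the doses and which differed at least 2-fold between them are listed here. With 1 array per group these differences were not tested, and both doses share the control array. How many of all genes meet both conditions was not counted, so the list does not show that receptors stand out. The second condition alone, 2-fold between the doses in either direction, was met by 27.6% of measured receptors and 35.3% of all genes. Lower at 70 than at 35 mg/kg were Htr5b (-3.65), Grik3 (-2.29), Adra1d (-2.03), Adra1a (-1.82), Chrm1 (-1.63), Gabbr2 (-1.29), Chrna2 (-1.10) and Chrnb4 (-1.06). Higher were Chrm5 (1.86) and Gabrg1 (1.12). For Adra1d the doses rest on different numbers of probe sets, 2 at the high dose and 1 at the low one. For Chrm1 these are 1 and 2. No group had enough arrays for a check of outlying samples.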

How the results depend on the processing

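With 1 array per group no replicate could be left out. No paired analysis was possible because each group has 1 array and the labels give no replicate numbers. Of 195 summary values recomputed under the alternatives, 156 stayed within 1.5 times (counts) or within 0.25 with the same sign (log2 medians), and 39 did not. Of 425 recomputed differences of receptors past 2-fold, 389 stayed past it, 26 kept their sign under it and 10 changed sign. The cause of these changes was not tested, except that a lower floor lets in more probe sets and a higher one fewer.

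At 70 mg/kg against control, receptors higher numbered 16, 23, 3 and 6, against 10, under floors of the 25th percentile, the 5th and the 55th and without less specific probe sets, and those lower 13 and 16, against 8, under floors of the 25th percentile and the 5th. At 35 mg/kg those higher numbered 24 and 6, against 14, under floors of the 5th percentile and the 55th, 9 with differences of gene medians and 7 without less specific probe sets, and those lower 9, 13 and 3, against 5, under floors of the 25th percentile, the 5th and the 55th. Between the doses those higher numbered 10, 16 and 3, against 5, with the same 3 floors, and those lower 20 and 7, against 11, under floors of the 5th percentile and the 55th. With a floor at the 5th percentile 14 vascular receptors were above it at 35 mg/kg.

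The neuronal median at 70 mg/kg was 0.034 without scaling, 0.0042 after quantile normalization, 0.041 with a common trimmed mean, 0.12 with a floor at the 5th percentile, 0.070 with the brightest probe set and -0.58 without less specific probe sets, and between the doses 0.10 with differences of gene medians. The vascular median at 70 mg/kg was 1.13 after quantile normalization, -0.015 with a floor at the 25th percentile, 0.082 with differences of gene medians and 0.0032 with the wider vascular class. At 35 mg/kg it was -0.40 with a floor at the 25th percentile and -0.056 at the 5th, 0.42 with differences of gene medians and 0.41 without less specific probe sets. Between the doses it was 0.29 under the same lower floors, -0.031 with one at the 55th, 0.10 without less specific probe sets and 0.0054 with the wider class.

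Drd3 at 35 mg/kg changed sign to -1.13 with a floor at the 55th percentile, with the brightest probe set and without less specific probe sets, and to -0.66 with differences of gene medians. Htr4 at 35 mg/kg was at -0.40 after quantile normalization and -0.12 under floors of the 25th percentile and the 5th. At 70 mg/kg Gabrd was at -0.57 with a floor at the 5th percentile, and Grin1 at 0.51 and 1.43 under the same floors. Adrb1, Chrna4, Gabra2, Gabra4, Grik5, Grin2b and Grin2d stayed past 2-fold at both doses in each alternative that measured them. All of these except Gabra4 and Grin2d have 1 probe set, without a suffix for less specific probes. For them the brightest probe set, gene medians and leaving out less specific probe sets could only return the same value. Gabra4 was not measured against the control with gene medians or without less specific probe sets.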
